A study of Mus musculus with 6 samples.

Results

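The 8 genes described here encode replacement histone variants, the histones that a cell makes outside DNA replication as well as during it. They were taken by symbol from a count table of 23481 genes: H2afz and H2afv (the H2A.Z forms), H2afx (H2A.X), H2afy (macroH2A1), H2afj (H2A.J), H3f3a and H3f3b (both H3.3) and the linker histone gene H1f0. All 8 passed the filter on low counts, among 12457 genes tested. Their levels are set against the summed reads of the 64 table rows whose symbols begin with Hist1h or Hist2h, the clustered genes for the replication-dependent histones.

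The cells are named 4T1_T in the title of the count table, and how they relate to the parental mouse mammary carcinoma line 4T1 is not stated in the labels. They were grown in DMEM with non-essential amino acids, a supplement that in its usual form contains asparagine. All cells were infected with a short hairpin RNA. The control hairpin shRenilla targets a luciferase that mouse cells lack and had 2 libraries, A and B, and shAsns-2, against the asparagine synthetase gene Asns, also had 2. Of a second Asns hairpin, shAsns-1, only library A held reads, since the column of library B was 0 at every gene. The labels name no passage, vector or time after infection, and do not say whether A and B were separate cultures, so p-values measure only the spread between these libraries.

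Gene reads per library ran from 10244753 to 15955168, so that the floor of 3 reads was 0.188 to 0.293 CPM (reads per 1000000 gene reads). Where a hairpin has 2 values, they are those of library A and then B. The level of Asns was 58.7 and 56.9 CPM in shRenilla, 45.7 and 44.2 in shAsns-2, and 110 in the library labelled shAsns-1. The library labelled shAsns-1 was therefore above both controls in the gene its hairpin is directed against. That library also had reads at 17672 genes, against 15052 to 15392 in the other 4. Of 10 epithelial marker genes, 9 exceeded 1 CPM in every library, Krt8, Krt18 and Cdh1 among them. Their sum was 922 CPM in the library labelled shAsns-1, where 5 of the 9 tested fell (Krt14, Esrp1, Krt7, Epcam and Cdh1), and at most 1165 elsewhere. Of all genes tested, 2.06% fell in that library against shRenilla (edgeR, adjusted p under 0.05). Sums over the fibroblast, immune and endothelial marker lists reached no more than 40.7, 6.51 and 1.43 CPM in any library. Above 1 CPM in every library were 2 of 7 (Pdgfra and Acta2), 1 of 5 (Cd68) and 0 of 4 genes, and Lum was at 0 throughout. Pdgfra, at 28.5 to 38.1 CPM, made up most of the fibroblast sum and was highest in the library labelled shAsns-1. The part that the library labelled shAsns-1's other differences have in its values below was not tested, and in bulk RNA fewer cells with a transcript and less transcript per cell cannot be told apart.

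Most histone protein is made in S phase from clustered genes without introns, whose messages end in a conserved stem-loop in place of a poly(A) tail. Replacement variants come from genes spread over the genome, are usually polyadenylated, and are placed in chromatin by dedicated chaperones and remodelling complexes. H2A.Z sits beside promoters and is exchanged by the SRCAP and EP400 complexes, H2A.X is phosphorylated around DNA breaks, macroH2A carries a large extra domain and is linked to silent chromatin, H3.3 is laid down by HIRA and by DAXX with ATRX, and H1.0, the product of H1f0, accumulates in differentiated or slowly cycling cells.

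The members lie apart in the mouse genome (GENCODE M21, GRCm38). H2afz lies at chr3:137864487-137866922 on the plus strand, H2afv at chr11:6427229-6444443 on the minus strand, H2afx at chr9:44334694-44336077 on the plus strand and H2afy at chr13:56073619-56136361 on the minus strand. H2afj lies at chr6:136808244-136810074 on the plus strand, H3f3a at chr1:180800832-180813943 on the minus strand, H3f3b at chr11:116021912-116027962 on the minus strand and H1f0 at chr15:79028450-79030504 on the plus strand. The longest coding transcripts of H2afx, H2afj and H1f0 have 1 exon, and those of the other members 4 to 9.

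The ends of the transcripts separate H2afx from the other members. Transcripts of the members were searched after the stop codon for the histone stem-loop, a hairpin of 16 bases, and in their last 60 bases for AATAAA or ATTAAA, the usual signals for polyadenylation. The stem-loop was found in 1 of the 8 members, H2afx, in 43 of the 49 clustered genes with an annotated end (87.8%) and in 19 of 18979 other coding genes (0.1%). A poly(A) signal was found in 7 of the 8 members, all but H2afy, and in 14 of the 49 clustered genes. H2afx thus carries both, as 11 clustered genes do. For H2afy only 2 coding transcripts of 8 annotated transcripts were searched. The lack of a signal there describes annotated ends, not the ends of messages in these cells. The windows below, from the annotated transcripts, show the stem-loop of H2afx beside that of a clustered linker histone gene, and then the poly(A) signals of some of the members. Capitals mark the stem-loop or the signal.
H2afx stem-loop: caaaGGCCCTTTTAAGGGCCaccacctccc
Hist1h1e stem-loop: caaaGGCTCTTTTCAGAGCCacccacaact
H2afx poly(A) signal: ctaattttATTAAAggatcgtttggttttg
H2afv poly(A) signal: tgcacagaAATAAAgaaactagcactagtg
H3f3a poly(A) signal: tgaaaaatAATAAAagtaccaatagaagaa
H3f3b poly(A) signal: gccttacaAATAAActagtaagtttggagt
H1f0 poly(A) signal: aactttaaAATAAAactggaaaggaaaaaa
The H2afx stem-loop starts at base 47 after the stop codon and that of Hist1h1e at base 41, and the letters of both are self-complementary around the central loop.

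Both gene pairs that encode the same or nearly the same protein have diverged at the level of bases, which bears on how well their reads can be told apart. H3f3a and H3f3b share 316 of 411 coding bases (76.9%), with no identical run longer than 23 bases. H2afz and H2afv share 306 of 387 (79.1%), with no run above 14. The opening 60 coding bases of each are shown here, with capitals at the positions that differ within a pair, 13 in each.
H3f3a: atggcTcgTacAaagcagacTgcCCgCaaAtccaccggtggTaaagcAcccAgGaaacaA
H3f3b: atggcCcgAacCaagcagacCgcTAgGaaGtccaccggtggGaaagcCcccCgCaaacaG
H2afz: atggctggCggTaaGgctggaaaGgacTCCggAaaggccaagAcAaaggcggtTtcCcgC
H2afv: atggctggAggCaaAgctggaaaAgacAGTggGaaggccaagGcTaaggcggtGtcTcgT
Copies elsewhere are closer than the pairs are to each other. At 90% identity or more over at least 200 bases, annotated transcripts held 37 copies of H3f3a, 36 of them pseudogenes, and only 1 of the 37, Gm12657, was a row of the table. H2afz had 4 pseudogene copies and H3f3b had 3, none of them a row. The H2afz copy Gm8203 was identical to H2afz over 387 aligned bases. H2afx matched 17 genes and H2afj 14, of which 13 and 11 were clustered Hist rows. The tally for reads with several alignments was 0, and how such reads were handled before counting is not stated. Levels of H2afz, H2afx, H2afj, H3f3a and H3f3b are thus less certain than those of H2afv, H2afy and H1f0, where no such copy was found.

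Since H2afv and H2afz had the widest ranges over these libraries, the 250 bases before their annotated starts are also shown (RefSeq, GRCm38.p6). Capitals mark the letters CCAAT and, for the other strand, ATTGG, the motif bound by the factor NF-Y and common in histone promoters.
H2afz, chr3:137864237-137864486, plus strand: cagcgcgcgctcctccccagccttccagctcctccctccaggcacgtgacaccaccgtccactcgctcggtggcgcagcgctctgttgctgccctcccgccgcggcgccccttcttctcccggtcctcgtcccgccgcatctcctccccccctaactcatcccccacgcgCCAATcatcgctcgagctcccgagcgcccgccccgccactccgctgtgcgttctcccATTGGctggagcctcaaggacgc
H2afv, chr11:6444444-6444693, minus strand: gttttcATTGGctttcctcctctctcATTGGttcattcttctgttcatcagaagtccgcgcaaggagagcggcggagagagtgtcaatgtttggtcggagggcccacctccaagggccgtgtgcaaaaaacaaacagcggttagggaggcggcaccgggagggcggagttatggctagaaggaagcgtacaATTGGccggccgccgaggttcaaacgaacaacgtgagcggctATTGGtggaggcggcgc
The RefSeq table matched 7 of the 8 members. H2afv and H3f3b held 4 such matches each over both strands, H2afj 3, H2afz 2, H3f3a 1, and H1f0 and H2afy 0. Of 32851 mouse promoters of the same length, 33.8% held at least 1, 10.1% at least 2, 2.79% at least 3 and 0.84% at least 4.

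H2afz and H1f0 were the most abundant members. Per kilobase of the longest coding transcript, the shRenilla mean was 410.0 ± 49.0 CPM for H2afz, 361 ± 25.9 for H1f0 and 141 ± 17.4 for H3f3b (SD, n = 2 libraries). It was 69.5 ± 1.804 CPM per kilobase for H2afx, 53.3 ± 3.31 for H2afy and 34.8 ± 5.56 for H3f3a. H2afv, at 14.1 ± 0.415, and H2afj, at 10.4 ± 0.416, were the lowest. The levels of H2afz and H1f0 overlapped between the shRenilla libraries, and no other neighbours in this order did. The order rests on annotated lengths, which run from 1069 bases for H2afz to 2841 for H3f3a, and a shorter message of a gene in use would raise its level per kilobase.

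**Figure D1:**
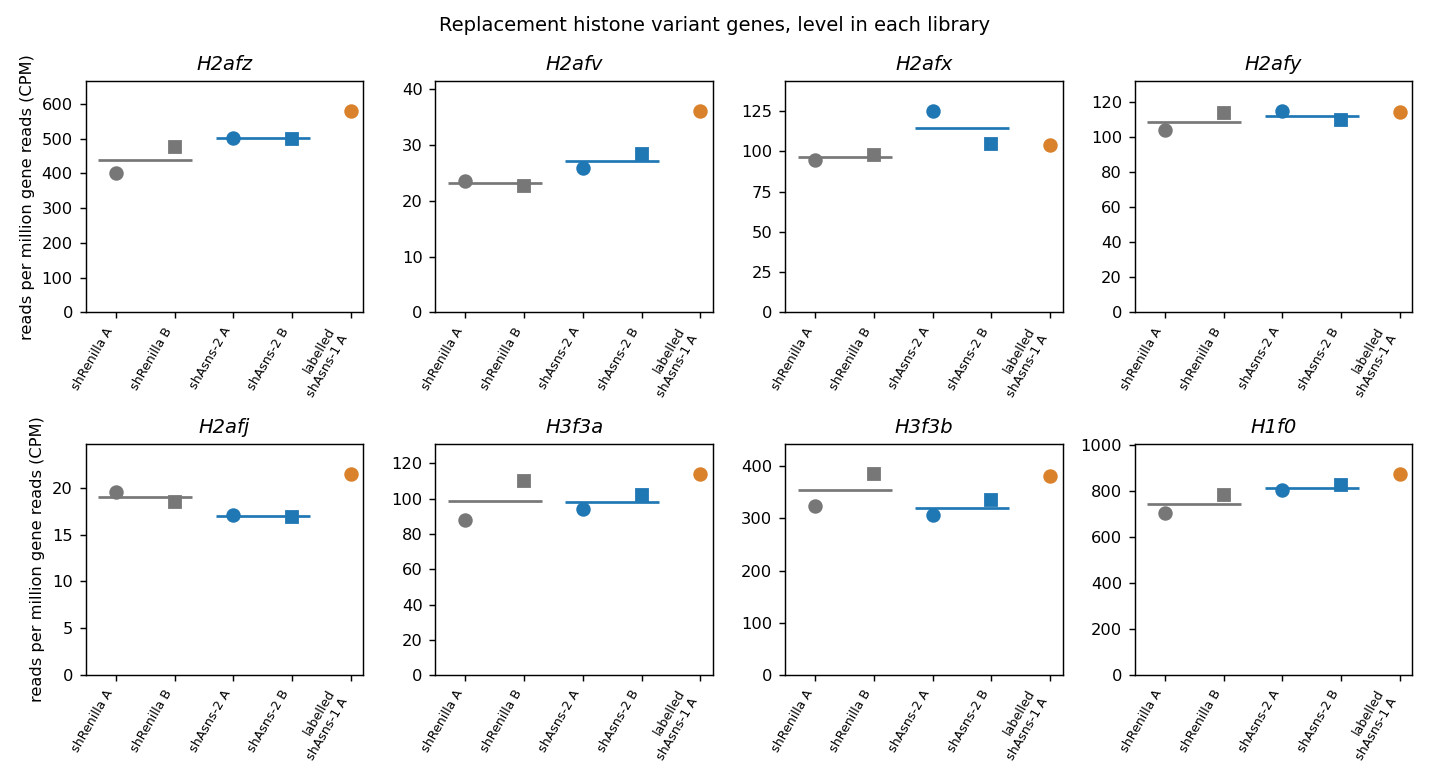
Level of each of the 8 variant genes in every library, in CPM (linear axes from 0, 1 point per library, lines at the means of the groups with 2 libraries). H2afz and H2afv are highest in the library labelled shAsns-1, at 579 and 36.0 CPM, while H2afy stays between 104 and 115 CPM in all 5.

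The Asns hairpin with 2 libraries that hold reads was shAsns-2, and Asns itself was 0.792-fold its shRenilla level there, which did not pass (edgeR adjusted p = 0.216). In shAsns-2 against shRenilla, 0 of the 8 members were called by edgeR's quasi-likelihood test at an adjusted p under 0.05, where 0.0642% of all genes tested were called. DESeq2 also called 0, and 0.0482% of all genes. At an unadjusted p under 0.05, 3 members were higher (H2afx, H2afv and H2afz) and 0 lower, against 5.59% and 4.05% of all genes. The median log2 fold change of the members was 0.12, beside -0.00 over all genes tested. Of the 8, 6 were positive and 2 negative, where 49.7% of all genes were positive. Both shAsns-2 libraries lay above both shRenilla libraries for 4 members (H2afz, H2afv, H2afx and H1f0), as they did for 16.6% of all genes, and below both for 1 (H2afj), as for 25.8%. With TMM-scaled library sizes the same members stood apart, and those shares were 20.5% and 20.8%.

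With the library labelled shAsns-1 set against shRenilla, 2 of the 8 members rose, H2afz and H2afv, and 0 fell, where 4.37% of all genes were called (2.31% higher and 2.06% lower). DESeq2 called 1 of the 8, H2afz, and 2.03% of all genes. At an unadjusted p under 0.05, 3 members were higher (H2afv, H2afz and H1f0), against 10% of all genes, and 0 lower, against 9.54%. All 8 fold changes were positive, where 48.7% of all genes were, with a median log2 value of 0.18 beside -0.01 over all genes. The 8 signs are not separate observations, since all rest on the same 2 controls and the same lone library. The library lay above both shRenilla libraries for 7 members, all but H3f3b, as it did for 38.8% of all genes, and below both for 0, against 36.7%. Between shAsns-2 and the library labelled shAsns-1, 0 members were called by edgeR, where 2.14% of all genes were (1.33% higher and 0.811% lower), and 0 by DESeq2, which called 1.25%. At an unadjusted p under 0.05, 1 member, H2afv, was lower in shAsns-2, against 7.89% of all genes, and 0 were higher, against 8.87%. With 1 library under that label, hairpin and library cannot be told apart, and both comparisons with shRenilla share its 2 libraries.

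**Figure D2:**
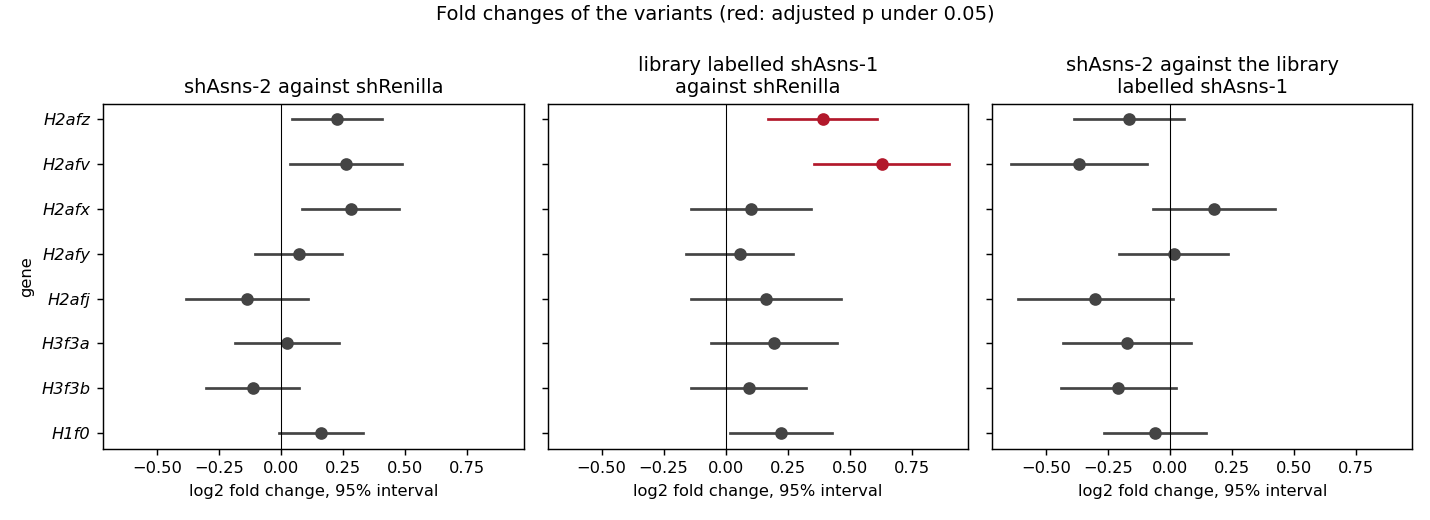
Log2 fold change of each variant with its 95% interval in the 3 comparisons of the edgeR fit (0 on the horizontal axis is no difference, red marks an adjusted p under 0.05). Only H2afz and H2afv in the library labelled shAsns-1 against shRenilla are red, and every interval for shAsns-2 against shRenilla stays below 0.49.

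H2afz encodes H2A.Z.1, the main H2A.Z form. It stood at 401 and 475 CPM in shRenilla, at 503 and 500.49 in shAsns-2, and at 579 in the library labelled shAsns-1. Both shAsns-2 libraries were thus above both controls, but the gap between the controls was wider than that from shRenilla B to shAsns-2. The log2 fold change of shAsns-2 was 0.22 (SE 0.0860, edgeR adjusted p = 0.423). H2afz was 1.31-fold higher in the library labelled shAsns-1 than in shRenilla (95% interval 1.13 to 1.53, edgeR adjusted p = 0.0424). That call was lost without shAsns-2 A, shAsns-2 B or shRenilla A (edgeR adjusted p = 0.132, 0.131 and 0.0987), with log2 fold changes of 0.39, 0.39 and 0.28 against 0.39 with all libraries.

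H2afv encodes H2A.Z.2, which differs from H2A.Z.1 at a few residues. It was expressed at a much lower level, 23.6 and 22.6 CPM in shRenilla, 25.8 and 28.4 in shAsns-2, and 36.0 in the library labelled shAsns-1. The 3 groups did not overlap, and among the members H2afv had the widest range over the 5 libraries, 0.66 on the log2 CPM scale. Against shRenilla the log2 fold change was 0.26 in shAsns-2 (SE 0.107, edgeR adjusted p = 0.449). H2afv was 1.55-fold higher in the library labelled shAsns-1 (95% interval 1.28 to 1.87, edgeR adjusted p = 0.00995), and DESeq2 gave an adjusted p of 0.0527. The difference of shAsns-2 from the library labelled shAsns-1 was -0.37 (SE 0.129, edgeR adjusted p = 0.157).

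The balance within the pair moved little. H2afz supplied 94.5% and 95.5% of the reads of both genes in shRenilla, 95.1% and 94.6% in shAsns-2 and 94.1% in the library labelled shAsns-1. The group means, 94.96% ± 0.712 for shRenilla and 94.9% ± 0.346 for shAsns-2 (SD, n = 2), were within each other's spread. The exact binomial interval in the library labelled shAsns-1, 93.5% to 94.7%, overlapped that of shRenilla A, 93.9% to 94.99%, and lay below that of shRenilla B, 94.95% to 95.9%. Such intervals cover counting error only.

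H2afx, whose product is the H2A form phosphorylated at DNA breaks, stood at 94.4 and 97.9 CPM in shRenilla and at 125 and 104.55 in shAsns-2. It stood at 104 in the library labelled shAsns-1. Both shAsns-2 libraries and the library labelled shAsns-1 were above both controls, and shAsns-2 A was the highest of all. The log2 fold change of shAsns-2 was 0.28 (95% interval 0.08 to 0.48), the largest of the members in that comparison, with an unadjusted p of 0.00767 and an edgeR adjusted p of 0.331, and it was 0.14 without shAsns-2 A. It was 0.10 in the library labelled shAsns-1 (edgeR adjusted p = 0.681). H2afx reads per read of clustered Hist H2A rows were 0.741 and 0.565 in shRenilla, 0.69968 and 0.681 in shAsns-2 and 0.685 in the library labelled shAsns-1, so the control libraries spanned all the others.

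H2afy, which encodes macroH2A1, was the steadiest member. Its levels were 104 and 114 CPM in shRenilla, 115 and 109.73 in shAsns-2, and 114 in the library labelled shAsns-1, a range of 0.17 on the log2 scale. The groups overlapped, and the log2 fold changes were 0.07 and 0.06 for shAsns-2 and the library labelled shAsns-1 (edgeR adjusted p = 0.82 and 0.817). H2afj encodes H2A.J, a form known to accumulate in senescent cells. It stood at 19.6 and 18.5 CPM in shRenilla, 17.1 and 16.8 in shAsns-2, and 21.5 in the library labelled shAsns-1. Both shAsns-2 libraries were the lowest and the library labelled shAsns-1 the highest, with log2 fold changes of -0.14 and 0.16 (edgeR adjusted p = 0.735 and 0.582).

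H3f3a and H3f3b encode the same H3.3 protein. H3f3a stood at 87.7 and 110.1 CPM in shRenilla, 94.25 and 102 in shAsns-2, and 114 in the library labelled shAsns-1. Both shAsns-2 values lay inside the gap between the controls, and the sign of the difference depended on scaling: the CPM ratio of shAsns-2 to shRenilla was 0.994, the fitted log2 fold change 0.02 (SE 0.0987, edgeR adjusted p = 0.958). H3f3b stood at 323 and 385 CPM in shRenilla, 306 and 335 in shAsns-2, and 381 in the library labelled shAsns-1. The groups overlapped again, with log2 fold changes of -0.12 and 0.09 (edgeR adjusted p = 0.70 and 0.699). Gm12657, the copy of H3f3a in the table, stood at 19.9 and 25.5 CPM in shRenilla, 24.5 and 23.3 in shAsns-2, and 27.0 in the library labelled shAsns-1.

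H3f3b supplied most H3.3 reads in every library: 78.7% and 77.8% in shRenilla, 76.4% and 76.6% in shAsns-2, and 76.95% in the library labelled shAsns-1. The shares in both shAsns-2 libraries, and that in the library labelled shAsns-1, were below both controls. The group means were 78.2% ± 0.626 in shRenilla and 76.5% ± 0.121 in shAsns-2 (SD, n = 2), and the exact binomial intervals of shAsns-2 B, 75.5% to 77.7%, and shRenilla B, 76.8% to 78.7%, overlapped. With 2 libraries against 2 an exact permutation test cannot give a two-sided p below 0.333, and these shares and the ratios below are given as descriptions, with no test. Per kilobase the means were 80.2% and 78.6%, and with the reads of Gm12657 added to H3f3a they were 74.5% and 72.4%.

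H1f0 was the member with the most reads. It stood at 705 and 779.93 CPM in shRenilla, 801 and 825 in shAsns-2, and 873 in the library labelled shAsns-1. The shAsns-2 libraries and the library labelled shAsns-1 were each above both controls. The log2 fold change was 0.16 in shAsns-2 (SE 0.0798, edgeR adjusted p = 0.541) and 0.22 in the library labelled shAsns-1 (SE 0.0970, edgeR adjusted p = 0.213), so neither was called. Per read of the clustered linker histone rows, H1f0 had 2.05 and 1.88 reads in shRenilla, 1.53 and 1.83 in shAsns-2, and 1.91 in the library labelled shAsns-1.

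**Figure D3:**
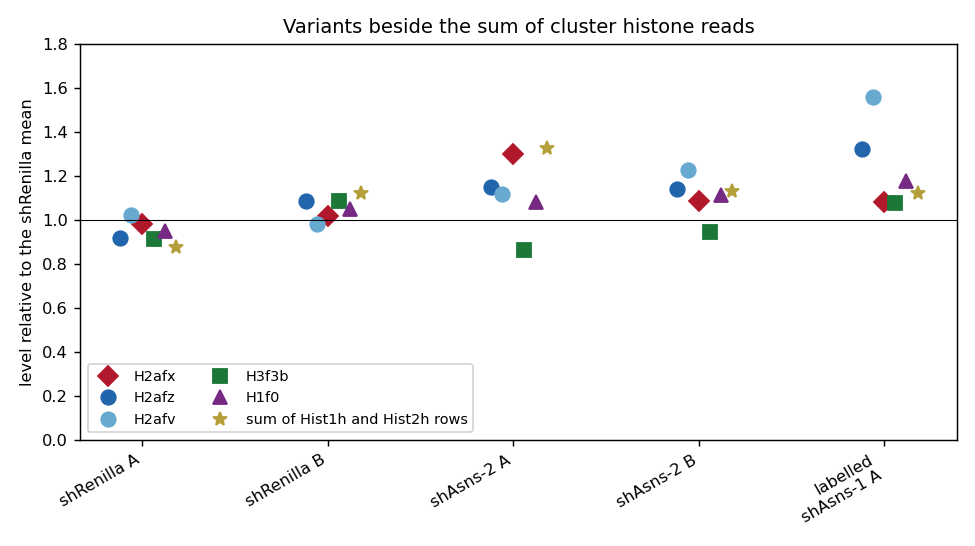
Level of H2afz, H2afv, H2afx, H3f3b and H1f0, and of the summed Hist1h and Hist2h rows (stars), relative to the shRenilla mean in each library (1 on the vertical axis is the mean of the 2 control libraries, points are shifted sideways for legibility). H2afv in the library labelled shAsns-1 is the farthest from 1, at a CPM ratio of 1.56, and H3f3b is below 1 in both shAsns-2 libraries.

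Set against the clustered histones, the variants made up the larger number of reads in every library. These sums, and the ratios of variant to clustered reads, were not corrected for transcript length, so they do not compare numbers of messages. The 8 members summed to 1759 and 2003 CPM in shRenilla, 1987 and 2023 in shAsns-2, and 2222 in the library labelled shAsns-1. The 64 Hist1h and Hist2h rows summed to 1148 and 1469 CPM in shRenilla, 1737 and 1478 in shAsns-2, and 1471 in the library labelled shAsns-1. shRenilla A had the lowest sum of both kinds, and the gap between the control libraries in the clustered sum was wider than that between shRenilla B and shAsns-2 B. Of the 54 clustered genes tested, 5 were called higher in shAsns-2 by edgeR and 0 lower (Hist1h1e, Hist1h2bm, Hist2h3b, Hist2h3c1 and Hist2h3c2, named because they were called), where 0.0642% of all genes were called, and DESeq2 called 3. At an unadjusted p under 0.05, 17 were higher and 1 lower, against 5.59% and 4.05% of all genes. A positive log2 fold change was found for 50 of the 54, a larger share than the 49.7% of all genes. How far clustered rows share reads with each other was not tested, since copies were searched for the members only. Hist2h3c1 and Hist2h3c2, for example, are identical over a window of 30 bases at the stem-loop. The 54 rows are thus not all separate observations. With the library labelled shAsns-1 against shRenilla, edgeR and DESeq2 each called 0 of the 54, beside 4.37% and 2.03% of all genes. At an unadjusted p under 0.05, 6 were higher and 0 lower, against 10% and 9.54% of all genes. The median log2 fold change of the 54 was 0.25 in shAsns-2 and 0.11 in the library labelled shAsns-1.

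The ratio of variant to clustered reads was 1.53 and 1.36 in shRenilla, 1.14 and 1.37 in shAsns-2, and 1.51 in the library labelled shAsns-1. The groups overlapped, with means of 1.45 ± 0.119 for shRenilla and 1.26 ± 0.158 for shAsns-2 (SD, n = 2). By class, the ratios for H3 and for H1 did not overlap between shAsns-2 and shRenilla. The H1f0 ratio given above was lower in both shAsns-2 libraries, by a narrow gap from 1.83 to 1.88. No share over all genes was worked out for ratios. Of single genes, both shAsns-2 libraries lay above both controls for 16.6% and below both for 25.8%. Reads of H3f3a and H3f3b per read of the Hist H3 rows were 3.18 and 3.43 in shRenilla, 1.86 and 2.46 in shAsns-2, and 3.13 in the library labelled shAsns-1. Both shAsns-2 libraries were below all 3 others, with means of 2.16 ± 0.422 against 3.3042 ± 0.172 in shRenilla. The Hist H3 rows stood at 129 and 145 CPM in shRenilla and at 215 and 178 in shAsns-2, a ratio of means of 1.44. Those rows include Hist2h3b, Hist2h3c1 and Hist2h3c2, which were called higher in the same libraries. H3.3 reads overlapped between the groups at a ratio of 0.924. The ratio of the 5 H2A variants to the Hist H2A rows, 5.05 and 4.2019 in shRenilla, 4.41 and 4.95 in shAsns-2, and 5.63 in the library labelled shAsns-1, overlapped between the groups with 2 libraries.

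**Figure D4:**
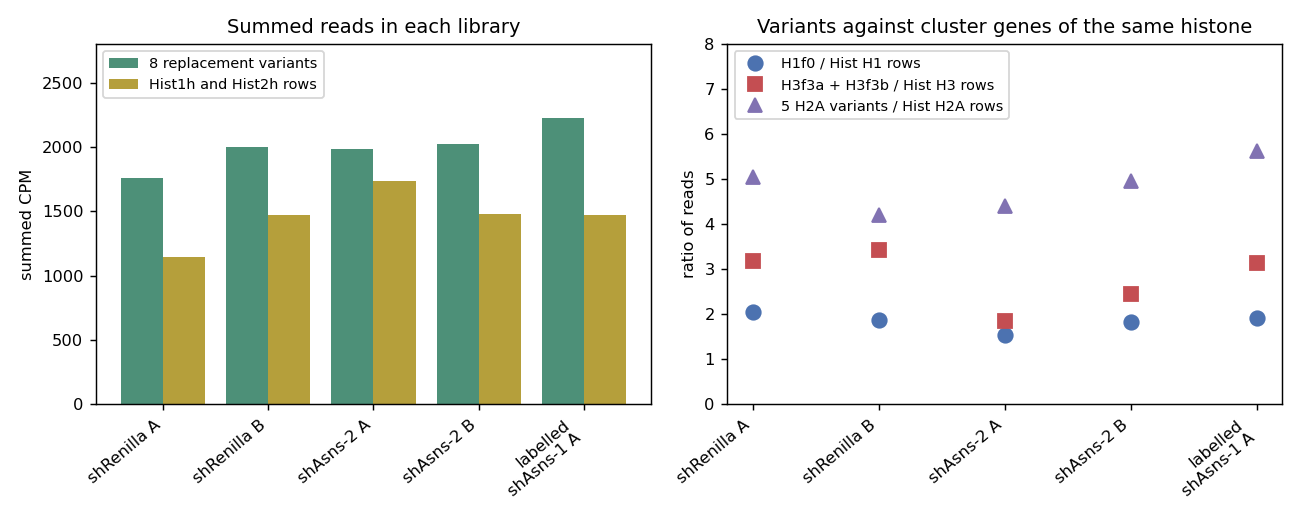
Left, summed CPM of the 8 variants and of the Hist1h and Hist2h rows in each library (bars from 0). Right, reads of the variants per read of the clustered rows of the same class in each library, where the H3.3 ratio is 1.86 and 2.46 in shAsns-2 and at least 3.13 in the other 3 libraries.

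Clustered genes that carry only the stem-loop and those that also carry a poly(A) signal, as H2afx does, were both higher in shAsns-2. The 32 with the stem-loop alone summed to 678 and 840.26 CPM in shRenilla, 1039.5 and 886 in shAsns-2, and 864 in the library labelled shAsns-1. The 11 with both summed to 171 and 204 CPM in shRenilla, 264 and 224 in shAsns-2, and 219.53 in the library labelled shAsns-1. In each of these classes the shAsns-2 libraries were above both controls, with median log2 fold changes of 0.25 and 0.40. The 3 with a poly(A) signal alone, 1 of them tested, were also above both controls in shAsns-2. They summed to 7.52 and 5.53 CPM in shRenilla, 9.74 and 8.71 in shAsns-2, and 6.74 in the library labelled shAsns-1. The ribosomal RNA precursor Rn45s was likewise higher in both shAsns-2 libraries: it stood at 20537 and 24239 CPM in shRenilla, 28889 and 27648 in shAsns-2, and 19900 in the library labelled shAsns-1, and its part in the result was not tested.

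Among other variant genes outside the clusters, 12 of 16 listed were in the table and 4 were tested. Of these, 0 were called by edgeR or DESeq2 in any comparison. At an unadjusted p under 0.05, 1 was higher in shAsns-2 than in the library labelled shAsns-1, against 8.87% of all genes. Cenpa, the centromeric H3, stood at 116 and 122 CPM in shRenilla, 124 and 109.66 in shAsns-2, and 131 in the library labelled shAsns-1. The groups with 2 libraries overlapped, and the log2 fold changes were 0.00 and 0.14.

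Of 39 tested genes for deposition and chaperones, edgeR called 0 in shAsns-2 against shRenilla, and DESeq2 called 0. At an unadjusted p under 0.05, 2 were higher and 0 lower, against 5.59% and 4.05% of all genes. The 2 were Dek, an H3.3 chaperone, with a log2 fold change of 0.22, and Vps72, the H2A.Z-binding subunit shared by the SRCAP and EP400 complexes, with 0.27. In the library labelled shAsns-1, 1 rose and 3 fell by edgeR, where 2.31% of all genes rose and 2.06% fell, and DESeq2 called 2 of these 4, Dek and Supt6. Dek rose by 0.40 (SE 0.0986, edgeR adjusted p = 0.0299), to 495 CPM from 373 ± 25.4 in shRenilla (SD, n = 2). Supt6, a histone chaperone of transcription elongation, fell by 0.48, Cabin1, a subunit of the HIRA complex, fell by 0.41, and Ruvbl2, an ATPase of the H2A.Z exchange complexes, fell by 0.40. Vps72 was at 19.3 CPM there, against 18.2 ± 0.172 in shRenilla (SD, n = 2). Between shAsns-2 and the library labelled shAsns-1, Ruvbl2 was higher in shAsns-2 (0.43, edgeR adjusted p = 0.0479), a call that DESeq2 did not make (adjusted p = 0.0831).

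Of 24 genes of damage signalling around H2A.X, edgeR called 0 in shAsns-2 against shRenilla, DESeq2 called 0, and at an unadjusted p under 0.05, 0 were higher and 4 lower, against 5.59% and 4.05% of all genes. Those farthest from 0 were Mre11a (-0.24) and Nbn (-0.23) of the complex that binds broken ends and the kinase Atr (-0.22), while H2afx stood at 0.28. In the library labelled shAsns-1, 1 rose, the checkpoint kinase gene Chek1 (0.39, edgeR adjusted p = 0.0297), and 0 fell. Over all genes, 2.31% rose and 2.06% fell there. Of 21 genes for histone pre-mRNA processing and its cyclin-dependent control, edgeR called 0 in shAsns-2 against shRenilla, and DESeq2 called 0. At an unadjusted p under 0.05, 2 were higher and 0 lower, against 5.59% and 4.05% of all genes. In the library labelled shAsns-1, 1 rose, cyclin E2 (Ccne2, 0.68, edgeR adjusted p = 0.00593), and 0 fell, beside the same shares of all genes.

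Of 43 S phase genes, edgeR called 0 in shAsns-2 against shRenilla, and DESeq2 called 0. At an unadjusted p under 0.05, 2 were higher and 1 lower, against 5.59% and 4.05% of all genes. The median log2 fold change of the list was -0.04 beside 0.25 for the clustered histones and 0.12 for the 8 variants. In the library labelled shAsns-1, Pcna, the replication clamp (0.47, edgeR adjusted p = 0.0143), and Tipin, of the fork protection complex (0.45, edgeR adjusted p = 0.0122), rose and 0 fell, and both were lower in shAsns-2 than there (-0.51 and -0.41). The 2 of 43 called there compare with 4.37% of all genes, and the list's median log2 fold change in that library was 0.04 beside -0.01 over all genes.

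The members did not share 1 profile over the 5 libraries. By the Euclidean distance between log2 CPM profiles centred on their means, the closest pair was H3f3a with H3f3b, at 0.153, followed by H2afz with H1f0, at 0.161. The H2A.Z pair was farther apart, at 0.309. Among 5467 well-expressed genes, Eny2 (0.0744), Arrdc3 (0.112) and Fam63b (0.128) were nearest to H2afv, and Sept10 (0.07605), Ywhah (0.0935) and Smad3 (0.106) to H2afz. Edf1 (0.0399), Ftl1 (0.0562) and Atp5d (0.0589) were nearest to H2afx. Eny2, for example, stood at 100 and 93.0 CPM in shRenilla, 113 and 117 in shAsns-2, and 149 in the library labelled shAsns-1. Its order of groups is that of H2afv, which follows from its choice as the nearest profile and is no further result. These distances describe 5 libraries only.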

How the data were processed

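RNA was extracted with Trizol and made into libraries with the Nugen Ovation RNAseq V2 kit, per the labels' protocols. The kit primes with random and oligo(dT) primers, so that messages without a poly(A) tail are also copied. The deposited table holds whole-number read counts per gene, made by the authors, and the submitters' processing notes name Bowtie2, HTSeq and mm10. Their versions and roles, the annotation and the use of strand were not given in the sources used here. The tallies for no feature (36.1 to 38.3% of all reads), ambiguous reads (0.584 to 0.626%) and unaligned reads (17.9 to 23.2%) stayed out of library sizes. The tally for reads with several alignments was 0.

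Counts were fitted with edgeR 4.0.16 (limma 3.58.1, R 4.3.3) in 1 quasi-likelihood fit over all groups, with TMM factors (0.9834 to 1.014), genes kept by filterByExpr and Benjamini-Hochberg adjustment over all genes tested. Calls were made at an adjusted p under 0.05. The design assumed 6 libraries and was fitted to 5, with 2 residual degrees of freedom, the lone library being assumed to vary like the others. The fit was tested on simulated data. DESeq2 1.42.0, other size factors, no filter, a replicate block, removal of GC trends and leaving out libraries were alternatives.

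The members and lists were chosen with earlier results of these data known. Named genes were all members, Asns, in each list the called genes (up to 6) and up to 3 with the largest changes above an average log2 CPM of 3, and the 3 nearest profiles, above an average log2 CPM of 5, of the 3 members with the widest range. Not all of these are printed, and 1 listed gene and its results are not reported here. Sequences come from GENCODE M21 transcripts (GRCm38) and RefSeq promoters, and copies were searched with BLAST 2.17.0 among the transcripts. Letters A and B were not taken as pairs in the main fit. The deviations of shAsns-2 A and shRenilla A correlated at 0.0267 over 8951 genes. That value shows little shared shift by letter, but cannot show how the libraries were handled.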

Additional observations from a re-analysis of the deposited data

Results flagged for a closer look

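These genes stood out because the test of the difference between the hairpins itself passed, by edgeR at an adjusted p under 0.05, with shAsns-2 set against the library labelled shAsns-1. The log2 differences were -1.26 for Asns, -0.52 for Ccne2, -0.51 for Pcna, -0.41 for Tipin and 0.43 for Ruvbl2. DESeq2 did not call Ccne2 (adjusted p = 0.187) or Ruvbl2 (adjusted p = 0.0831) and called the other 3. The epithelial markers Krt14, Esrp1, Epcam, Cdh1 and Krt7 also passed by edgeR, with log2 differences of 2.14, 1.89, 0.95, 0.55 and 0.48. DESeq2 called 4 genes of that list. None of the 8 variants passed by edgeR (0 called, 1 lower at an unadjusted p under 0.05, 0 called by DESeq2). Of all genes tested, 2.14% passed in this comparison by edgeR and 1.25% by DESeq2. With 1 library under the label shAsns-1, hairpin and library cannot be told apart.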

How the results depend on the processing

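For shAsns-2 against shRenilla, and against the library labelled shAsns-1, 0 members were called by edgeR or DESeq2 under every alternative run. Between the library labelled shAsns-1 and shRenilla the count of 2 became 1 with DESeq2 and ranged from 1 to 3 when a library was left out: 1 (H2afv) without shAsns-2 A, shAsns-2 B or shRenilla A, and 3 without shRenilla B, where H3f3a joined (0.36, edgeR adjusted p = 0.0482). With the replicate block it was 2, and with the replicate block and GC trends removed 3, where H1f0 joined (0.32, edgeR adjusted p = 0.0495). The causes were not tested, and leaving 1 library out changes both how many libraries are used and which. The share of all genes called was worked out for the main fit and DESeq2 only. Under the other alternatives these counts therefore cannot be set beside it. Removing GC trends alone left both calls (H2afz edgeR adjusted p = 0.0441, H2afv 0.0144).

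Of 248 single-gene values under alternatives, 7 changed sign, all of uncalled genes. H2afy in shAsns-2, measured from the library labelled shAsns-1, went from 0.01 to -0.056 with GC trends removed and -0.069 with the replicate block as well, and ranged over left-out libraries from -0.024 (without shAsns-2 A) to 0.052. H3f3a in shAsns-2 against shRenilla went from 0.02 to -0.03 without shAsns-2 B and -0.12 without shRenilla A, and reached 0.19 without shRenilla B. H3f3b there went from -0.12 to 0.0077 without shRenilla B and -0.23 without shRenilla A, and in the library labelled shAsns-1 from 0.09 to -0.019 without shRenilla A and 0.22 without shRenilla B. The causes were not tested.

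Per kilobase, H3f3b made up 80.2, 78.6 and 79.05% of H3.3 reads in shRenilla, shAsns-2 and the library labelled shAsns-1, and H2afz 96.6, 96.6 and 96.1% of H2A.Z reads, by construction from the unequal lengths. With Gm12657 added to H3f3a the H3f3b shares were 74.5, 72.4 and 73.0%. No copy of H2afz or H2afv is a row of the table, so that alternative could give no value. The ratio of the clustered sum to its shRenilla mean, 1.23 in shAsns-2 and 1.12 in the library labelled shAsns-1, ranged over left-out libraries from 1.09 to 1.40 and from 1.0015 to 1.28. GC content was known for 94.3% of genes tested. With 1 or 2 libraries a group, small changes could not be told from library spread.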
